A study of Mus musculus with 15 samples.

Results

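The 6 genes described here, of 32285 measured, are the neurotrophins Bdnf and Ntf3, their kinase receptors Ntrk2 and Ntrk3, and the receptors Ngfr and Sorcs2. They were chosen by name, with earlier results of these data known. Their transcripts were counted in single nuclei of the dorsal hippocampal formation (dHF) of 15 female C57BL6/J mice. Of these, 6 were virgin nulliparous females (NP), age-matched to the dams, 4 had reproductive experience (control RE, labelled Control PP in the series: mating, pregnancy, birth and care of a litter until weaning), and 5 had the same experience together with limited nesting and daily maternal separation in the later part of lactation (stress RE). All were wild type, no exact age was given in the labels, and each mouse gave 1 library made from 4 pooled micropunches. The comparison of control RE with NP addresses what reproductive experience leaves behind in the dHF, and that of stress RE with control RE what postpartum stress adds.

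Neurotrophins are secreted growth factors that are made as precursors and support the survival, growth and synaptic plasticity of neurons. Bdnf (brain-derived neurotrophic factor) signals mainly through TrkB, the product of Ntrk2, and Ntf3 (neurotrophin 3) mainly through TrkC, the product of Ntrk3. Ngfr encodes p75, which binds all neurotrophins and, together with sortilin-family receptors such as Sorcs2, their uncleaved precursors. In the adult hippocampus Bdnf is best known as an activity-dependent gene of excitatory neurons, and the Ntrk2 locus gives rise both to a receptor with a kinase and to a truncated receptor that astrocytes make. The deposited counts are given per gene and do not separate these forms, and the Ntrk2 values below are sums over all transcripts of the locus.

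In GRCm38 with GENCODE M21 annotation, Bdnf (ENSMUSG00000048482) lies on the plus strand at chr2:109674700-109727007 and Ntf3 (ENSMUSG00000049107) on the minus strand at chr6:126101412-126166910. Ntrk2 (ENSMUSG00000055254) spans 327.4 kb on the plus strand at chr13:58806569-59133970, and Ntrk3 (ENSMUSG00000059146) 562.1 kb on the minus strand at chr7:78175959-78738012. Ngfr (ENSMUSG00000000120) is the shortest locus, 18.9 kb on the minus strand at chr11:95568818-95587735, and Sorcs2 (ENSMUSG00000029093) covers 381.0 kb on the minus strand at chr5:36017180-36398139. Annotated antisense genes overlap Bdnf (Gm45346), Ntrk2 (Gm47423 and 4930415C11Rik) and Ntrk3 (Gm9885 and 4921513I08Rik), and the protein-coding Psapl1 lies on the opposite strand within Sorcs2. These partners have rows of their own in the counts, and the 3' chemistry keeps the strand of a read, but the strand setting of the counting is not given in the sources used here, and how far reads of a gene and its partner were separated was not tested. Gm45346 reached a mean of only 0.673 CPM in its highest class, where CPM is the share of UMIs scaled to 1000000. Gm47423 reached 55.7 ± 24.1 CPM in astrocytes and 4930415C11Rik 78.3 ± 46.9 CPM in Cajal-Retzius neurons, both among the highest classes of Ntrk2, and the partners of Ntrk3 and Sorcs2 at most 4.13 CPM.

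Bdnf is transcribed from several alternative promoters, of which RefSeq (GRCm38.p6) gives 7 start windows, each running from 250 bases before a transcript start to 50 after it. A stretch of 77 bases that ends at 1 of these starts, chr2:109692359-109692435 on the plus strand, is shown because it is the only 1 of the 7 windows with a match to a variant of the cyclic AMP response element, the sequence through which activity-dependent genes are classically switched on by the factor CREB.
Bdnf promoter stretch: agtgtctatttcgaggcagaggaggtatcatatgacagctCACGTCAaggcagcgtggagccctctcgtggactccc
The capitals mark the letters CACGTCA, searched on both strands (TGACGTG on the other) and chosen after this window had been read. They occurred in 661 of 32851 promoter windows, or 2.01%. The full palindromic element TGACGTCA, which the variant does not contain, occurred in 588 windows (1.79%) and in none of the Bdnf windows. RefSeq windows were matched for 4 of the 6 genes, and none of those of Ntf3, Ngfr or Ntrk2 held either motif. Which Bdnf promoter was used in a nucleus cannot be read from 3' counts, and a match is a description of the letters only.

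The 15 libraries held 134019 barcodes, of which 123907 remained as nuclei after filters on quality and doublets. Median depth per library ran from 3993 to 8754 UMIs per barcode. Pairs of libraries shared 6 to 47 barcode sequences. Clustering and marker genes gave 24 named classes with 118065 nuclei. All hippocampal subfields were present, but so were nuclei from outside the hippocampus: thalamic excitatory neurons were 1.40% to 9.13% of a library's nuclei, striatal-type projection neurons up to 7.44% and habenular neurons up to 4.81%. A level below is the gene's UMIs summed over all nuclei of a class in 1 mouse, scaled as CPM to all UMIs of that class and mouse. It is given as the mean over mice ± SD, using a mouse only where it gave 10 or more nuclei of that class, and is compared between classes for the same gene only.

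**Figure D1:**
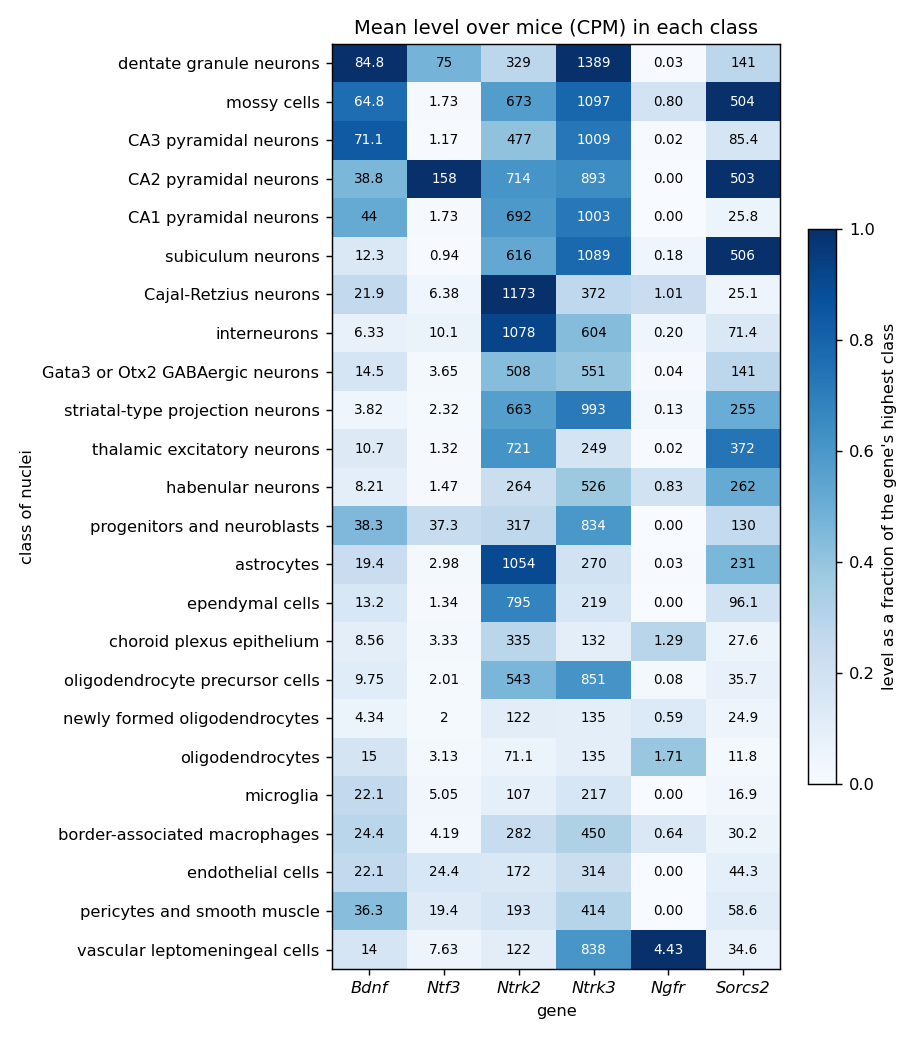
Mean level over mice (CPM, printed in each cell) of the 6 genes (columns) in the 24 classes of nuclei (rows), with shade giving the level as a fraction of that gene's highest class. Bdnf was highest in dentate granule neurons (84.8), Ntf3 in CA2 pyramidal neurons (158), Ntrk2 in Cajal-Retzius neurons (1173), Ntrk3 in dentate granule neurons (1389), Ngfr in vascular leptomeningeal cells (4.43) and Sorcs2 in subiculum neurons (506).

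Bdnf was highest in the excitatory neurons of the dentate gyrus and CA3. Its level was 84.8 ± 11.7 CPM in dentate granule neurons (n = 15 mice), 71.1 ± 15.5 CPM in CA3 pyramidal neurons (n = 15), 64.8 ± 29.0 CPM in mossy cells (n = 13), 44.0 ± 7.97 CPM in CA1 pyramidal neurons and 38.8 ± 10.4 CPM in CA2 pyramidal neurons (both n = 15). Granule neurons were above CA3 in 12 of 15 mice, by 13.7 ± 14.9 CPM, so these neighbours in the order did not differ beyond their spread, and neither did any pair that followed down to the CA2 neurons. The next classes were progenitors and neuroblasts (38.3 ± 14.2 CPM) and pericytes and smooth muscle (36.3 ± 18.5 CPM). CA2 neurons were above the progenitors in 8 of 15 mice only, so they were not set apart from the classes below. Because granule neurons were also the most numerous neurons, at 28.9% of nuclei, they held 59.7% ± 8.53 of all Bdnf UMIs of a mouse, and CA3 neurons another 13.6% ± 4.57 from 3.65% of nuclei.

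Interneurons were among the lowest classes for Bdnf. Interneurons of all kinds had 6.33 ± 5.02 CPM, and the subtypes named by Sst, Pvalb, Lamp5 and Vip, peptide, calcium-binding and transmembrane markers of interneuron families, had means from 4.21 to 7.49 CPM. The split of Sst from Pvalb interneurons is uncertain: 1 of the clusters named Sst (173 of 793 nuclei) scored about as high on the Pvalb markers as on its own, without Sst among its leading genes, and the Pvalb cluster had the Sst markers as its next name. The Lamp5 name is also less sure. Most of its nuclei (605 of 730) came from a cluster named on 4 of 6 markers, with Lhx6, a Sst and Pvalb marker, but no Lamp5 marker among its leading genes. The Gata3 or Otx2 GABAergic neurons had 14.5 ± 4.02 CPM, no lower than the excitatory subiculum (12.3 ± 6.55 CPM) and thalamic neurons (10.7 ± 1.84 CPM). Glial classes, which serve here as a rough guide to the background that free RNA can give, were not at 0: microglia had 22.1 ± 9.12 CPM and oligodendrocytes 15.0 ± 3.31 CPM. Their nuclei were shallower than those of most neurons, so these levels are no floor for deep neurons. A Bdnf UMI was found in 39.8% of granule neurons (median depth 7978.5 UMIs), in 45.1% of CA3 neurons (17164 UMIs), in 4.31% of microglia (2056.5 UMIs) and in 3.87% of oligodendrocytes (2492 UMIs). With every nucleus thinned to 1000 UMIs, which left out 1793 shallower granule neurons, 5 CA3 neurons, 136 microglia and 479 oligodendrocytes, the shares were 7.36% of granule neurons, 5.60% of CA3 neurons, 1.84% of microglia and 1.61% of oligodendrocytes. The order of granule and CA3 neurons therefore followed the CPM only after thinning.

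The values by mouse in granule neurons ran from 72.4 to 101 CPM with a median of 80.4 in NP mice. In control RE mice they were 98.3, 69.0, 81.0 and 69.3 CPM, and in stress RE mice 83.8, 88.9, 107, 90.1 and 80.9 CPM. The 3 groups overlapped, and the highest value was a stress RE mouse and the lowest a control RE mouse. Values also differed by the batch given in the labels, with 2 mice a group in batches 2 and 3. In batch 2 NP mice had 75.4 and 75.1 CPM, control RE mice 69.0 and 69.3 CPM and stress RE mice 90.1 and 80.9 CPM. In batch 3 they had 95.2 and 101, 98.3 and 81.0, and 83.8 and 107 CPM in the same order. The main fit had no batch term, and the part of batch in these values was not tested. In CA3 neurons NP mice ran from 47.1 to 97.2 CPM (median 72.1), control RE mice had 63.6, 77.01, 65.2 and 54.7 CPM, and stress RE mice 80.6, 67.8, 80.2, 89.7 and 56.4 CPM. The NP mice of batch 1, which held no control RE mouse, had 52.6 and 47.1 CPM. In batch 2 NP mice had 89.9 and 60.3 CPM, control RE mice 77.01 and 54.7 CPM and stress RE mice 89.7 and 56.4 CPM. In batch 3 they had 97.2 and 83.9, 63.6 and 65.2, and 80.6 and 80.2 CPM in the same order. In mossy cells, the hilar excitatory neurons of the dentate gyrus, the 4 NP mice with enough nuclei had 118, 114, 46.0 and 72.7 CPM, control RE mice 46.8, 79.3, 40.4 and 24.1 CPM, and stress RE mice 51.8, 56.6, 78.8, 80.5 and 33.5 CPM. The cluster behind this class was named on 4 of 8 mossy markers, with a mean log2 fold of 2.05 over the clusters' median that the CA3 list equalled (2.13 against 2.05 at the finer clustering), so the name is uncertain against CA3. These values rest on 10 to 41 mossy nuclei per mouse, and all groups overlapped.

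Ntf3 had a different and sharper map, led by CA2 pyramidal neurons, the small field between CA3 and CA1. Its level there was 158 ± 30.3 CPM, against 75.01 ± 7.64 CPM in dentate granule neurons (both n = 15). CA2 was above the granule neurons in 15 of 15 mice, by 82.8 ± 29.4 CPM, and the lowest CA2 mouse (109 CPM) was above the highest granule value (88.6 CPM). The pyramidal fields on either side were near the glial level: CA3 had 1.17 CPM and CA1 1.73 CPM, with 5.05 ± 2.77 CPM in microglia and 3.13 ± 1.13 CPM in oligodendrocytes. Mossy cells, at 1.73 CPM, also lacked the level of the granule neurons that they neighbour.

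After these came progenitors and neuroblasts (37.3 ± 22.7 CPM), endothelial cells (24.4 ± 23.7 CPM) and pericytes and smooth muscle (19.4 ± 23.0 CPM), whose values spread widely and rest on 1152, 1217 and 535 nuclei in all. Among interneurons, Ntf3 was at 39.9 ± 22.2 CPM in the Pvalb subtype (n = 15, 395 nuclei), against 8.81 ± 5.67 CPM in Lamp5, 4.08 ± 2.52 CPM in Sst and 1.91 ± 1.64 CPM in Vip interneurons, with the uncertain split of Pvalb from Sst given above. An Ntf3 UMI was found in 68.0% of CA2 neurons, 38.1% of granule neurons, 21.8% of Pvalb interneurons, 1.06% of microglia and 0.801% of oligodendrocytes, and after thinning in 15.5%, 6.80%, 3.29%, 0.429% and 0.331% of them.

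In CA2 neurons, NP mice ran from 132 to 199 CPM of Ntf3 with a median of 169.5. Control RE mice had 129, 117, 109 and 153 CPM, and stress RE mice 149, 224, 142, 171 and 169.9 CPM. Control RE mice were mostly below the others but overlapped both groups. In granule neurons the groups lay on top of each other: NP mice ran from 66.2 to 88.6 CPM (median 69.8), control RE mice had 74.5, 68.0, 86.97 and 71.0 CPM, and stress RE mice 69.9, 86.7, 76.4, 75.6 and 70.6 CPM. In progenitors and neuroblasts NP mice ran from 14.6 to 39.4 CPM (median 33.5), control RE mice had 34.7, 36.96, 40.2 and 111 CPM, and stress RE mice 45.2, 33.5, 23.3, 14.1 and 43.5 CPM. The value of 111 CPM, from 30 UMIs in 66 nuclei, stood apart from the rest.

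The receptor Ntrk2 was found in neurons and glia alike, with its highest levels outside the pyramidal and granule layers. Cajal-Retzius neurons, the reelin-producing cells near the hippocampal fissure, had 1173 ± 130 CPM, interneurons 1078 ± 94.1 CPM and astrocytes 1054 ± 58.1 CPM (each n = 15). Neighbours in this order did not differ beyond their spread. Ependymal cells followed at 795 ± 206 CPM (n = 10), then thalamic excitatory neurons at 721 ± 54.8 CPM, CA2 neurons at 714 ± 121 CPM and CA1 neurons at 692 ± 121 CPM. Dentate granule neurons were well below, at 329 CPM, and the lowest classes were microglia (107 ± 34.2 CPM) and oligodendrocytes (71.1 ± 18.2 CPM).

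Within interneurons Ntrk2 was at 1332 ± 168 CPM in the Lamp5 subtype, 1202 ± 204 CPM in Pvalb, 1038 ± 93.6 CPM in Sst and 905 ± 129 CPM in Vip. After thinning to 1000 UMIs a Ntrk2 UMI was found in 68.4% of Cajal-Retzius neurons, 62.0% of interneurons and 62.4% of astrocytes, against 8.47% of microglia and 7.03% of oligodendrocytes. Unthinned, the shares were 91.2%, 99.2% and 92.0% against 16.7% and 16.6%, at median depths of 2749, 12580.5 and 3395 UMIs against 2056.5 and 2492 UMIs.

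By mouse, Ntrk2 in Cajal-Retzius neurons ran from 1100.4 to 1327 CPM in NP mice (median 1218). Control RE mice had 974, 1164, 1001 and 1043 CPM, and stress RE mice 1013, 1283, 1305, 1123 and 1401 CPM. Of the control RE mice, 3 were below every NP mouse and the fourth was not. In interneurons NP mice ran from 1054 to 1211 CPM (median 1098), control RE mice had 1034, 981, 1236 and 1093 CPM, and stress RE mice 1028, 1156, 854, 1037 and 1068 CPM. In astrocytes NP mice ran from 964 to 1135 CPM (median 1055), control RE mice had 1026, 1028, 1175 and 1082 CPM, and stress RE mice 1027, 1088, 1050.1, 1019.5 and 992 CPM. The groups overlapped in all 3 classes.

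Ntrk3 was highest in excitatory neurons of the hippocampal formation. Dentate granule neurons had 1389 ± 91.7 CPM (n = 15), mossy cells 1097 ± 155 CPM (n = 13), subiculum neurons 1089 ± 79.5 CPM (n = 12), CA3 neurons 1009 ± 71.9 CPM and CA1 neurons 1003 ± 67.5 CPM (both n = 15). Granule neurons were above mossy cells in 13 of 13 mice, by 300.3 ± 126 CPM, and none of the classes that followed, down to the CA2 neurons, differed from its neighbour beyond the spread. Granule neurons, first for Ntrk3, were among the lower neuron classes for Ntrk2. Striatal-type projection neurons, which are inhibitory, had 993 ± 94.3 CPM (n = 8), while thalamic excitatory neurons were low at 249 ± 64.6 CPM (n = 15). Outside neurons, oligodendrocyte precursor cells, the dividing glia that give rise to oligodendrocytes, had 851 CPM and vascular leptomeningeal cells 838 CPM. Microglia (217 ± 62.4 CPM) and oligodendrocytes (135 ± 50.4 CPM) were low. Among interneurons Pvalb had 997 ± 245 CPM, Sst 668 ± 103 CPM, Vip 557 ± 58.3 CPM and Lamp5 357 ± 61.6 CPM, so that the Lamp5 subtype, highest for Ntrk2, was lowest for Ntrk3. The order of Pvalb and Sst rests on the same uncertain split, and the place of Lamp5 on a name that is less sure, as given above.

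A Ntrk3 UMI was found in 94.1% of granule neurons and 29.5% of microglia, and after thinning in 69.5% and 15.5%. Granule neurons of NP mice ran from 1309 to 1484 CPM with a median of 1379.5. Control RE mice had 1309.5, 1263, 1474 and 1361 CPM, and stress RE mice 1344, 1547, 1284, 1391 and 1544 CPM. In mossy cells the 4 NP mice had 882.5, 1400.05, 1165 and 1009 CPM, control RE mice 1195, 989, 1248 and 1044 CPM, and stress RE mice 1016, 1225, 848, 1080.0 and 1162 CPM. In subiculum neurons NP mice ran from 917 to 1191 CPM (median 1085), the 3 control RE mice had 1169.9, 1084 and 1135 CPM, and the 3 stress RE mice 1067, 1067 and 1087 CPM. All groups overlapped in these classes.

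Ngfr was close to the limit of detection. The 123907 nuclei held 236 Ngfr UMIs in all, of which 136 were in oligodendrocytes, the myelinating glia. In each mouse oligodendrocytes held 59.0% ± 11.4 of the Ngfr UMIs and 23.8% of the nuclei, a level of 1.71 ± 0.63 CPM with no mouse at 0. Vascular leptomeningeal cells had the highest mean, 4.43 ± 5.81 CPM from 24 UMIs, with 6 of 15 mice at 0. An Ngfr UMI was found in 0.446% of oligodendrocytes and 1.35% of leptomeningeal cells, and in 0 of 4802 microglia, which allows a share of up to 0.0625% of cells with a UMI at this depth. It was found in 8 of 35724 granule neurons, or 0.0224%.

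In oligodendrocytes Ngfr ran from 1.16 to 3.35 CPM in NP mice (median 1.98). Control RE mice had 1.54, 2.18, 1.48 and 1.55 CPM, and stress RE mice 0.881, 1.84, 1.98, 1.07 and 1.15 CPM, so the groups overlapped. In leptomeningeal cells NP mice ran from 0 to 10.8 CPM (median 5.13), control RE mice had 0, 6.79, 3.76 and 4.17 CPM, and stress RE mice 0, 2.36, 21.7, 0 and 0 CPM. The value of 21.7 CPM came from 5 UMIs in 96 nuclei. Choroid plexus epithelium was next by its mean, at 1.29 CPM from 6 UMIs.

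Sorcs2 was highest in 3 excitatory classes. Subiculum neurons had 506 ± 105 CPM (n = 12), mossy cells 504 ± 127 CPM (n = 13) and CA2 neurons 503 ± 147 CPM (n = 15), 3 levels that did not differ beyond their spread. In the 10 mice with both classes, subiculum neurons were above mossy cells in 3 only, with a mean difference of -52.4 ± 99.99 CPM. The first place of the subiculum by its mean therefore rests on different sets of mice. The subiculum class (535 nuclei) was taken from the finer clustering, where 4 of 5 markers named it. Of the cluster first given that name, 77.5% lay in clusters left unnamed there. Thalamic excitatory neurons (372 ± 67.6 CPM) and habenular neurons (262 ± 86.0 CPM) followed, and astrocytes were the highest glial class at 231 ± 39.6 CPM. CA2 neurons were above thalamic neurons in 14 of 15 mice, by 130 ± 102 CPM, which was not beyond the spread either. CA3 (85.4 CPM) and CA1 neurons (25.8 CPM) were far below the CA2 neurons between them. Oligodendrocytes (11.8 ± 3.50 CPM) and microglia (16.9 ± 6.17 CPM) were lowest. After thinning a Sorcs2 UMI was found in 42.8% of subiculum neurons, 37.8% of mossy cells and 35.6% of CA2 neurons, against 1.39% of microglia. Unthinned, these shares were 95.7%, 98.0% and 97.3% against 3.21%.

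In subiculum neurons Sorcs2 ran from 409.99 to 697 CPM in NP mice (median 501). The 3 control RE mice with enough nuclei had 337, 521 and 598 CPM, and the 3 stress RE mice 617, 417 and 456 CPM. In mossy cells the 4 NP mice had 552, 643, 506 and 482 CPM, control RE mice 471, 443, 789 and 528 CPM, and stress RE mice 304, 588, 315, 456 and 469 CPM. In CA2 neurons NP mice ran from 363 to 860.1 CPM (median 509), control RE mice had 409, 383, 646 and 542 CPM, and stress RE mice 427, 692, 304, 451 and 408 CPM. The groups overlapped in each class.

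Ligand and receptor maps could be set beside each other over the 24 classes as Pearson correlations of log2(CPM + 1), which describe classes that share libraries and differ in depth. The coefficient was 0.04 for Bdnf with Ntrk2, 0.23 for Ntf3 with Ntrk3, 0.44 for Bdnf with Ntrk3 and 0.54 for Ntrk2 with Sorcs2. In CA2 neurons, where Ntf3 led, Ntrk2, Ntrk3 and Sorcs2 were at 714, 893 and 503 CPM. In granule neurons, second for Ntf3, they were at 329, 1389 and 141 CPM. Both sets were above the oligodendrocyte levels (71.1, 135 and 11.8 CPM), but these were among the lowest of all classes. Receptor levels above them are therefore not particular to CA2. Of 15524 genes compared over the same classes, those most like Ntrk2 were Gm47423 (r = 0.93), 4930415C11Rik (0.87) and Pfkm (0.81), of which the first 2 are the antisense genes inside the Ntrk2 locus, at chr13:58824218-58826994 and chr13:59054896-59084093. Bdnf was most like Nptxr (0.87), Prdm8 (0.85) and Gm31816 (0.84), Ntf3 like Gm34567 (0.72), Acvr2a (0.72) and Hmbox1 (0.70), Ntrk3 like Mmp17 (0.87), Shc2 (0.86) and Gm44151 (0.86), Ngfr like Gm536 (0.82), Kcnk5 (0.77) and Slc47a1 (0.73), and Sorcs2 like Klhl10 (0.78), Sntg2 (0.77) and Tspoap1 (0.77). The values for Ngfr rest on 236 UMIs in all, with class means of 0 in microglia, CA1 and CA2 neurons among others, so nothing is read from them.

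**Figure D2:**
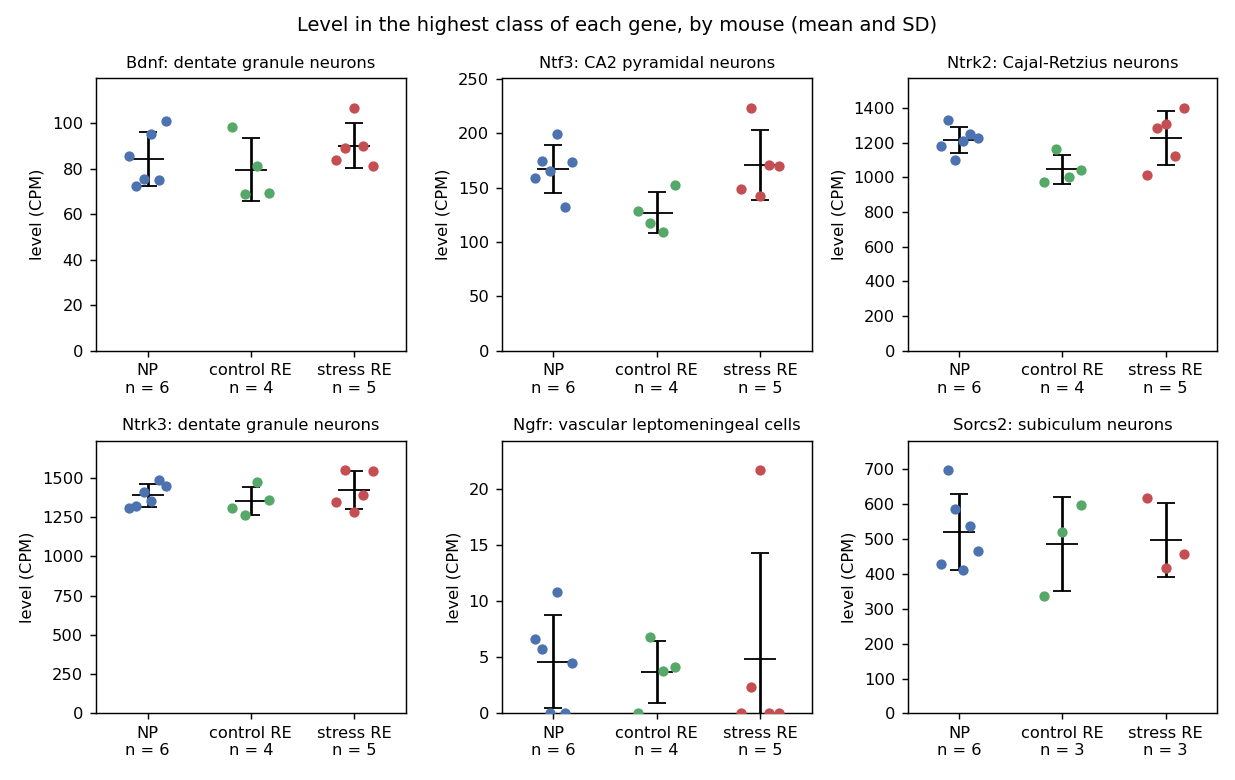
Level (CPM, linear axis from 0) of each gene in its highest class, 1 point per mouse in the NP, control RE and stress RE groups, with the group mean as a horizontal tick and the SD as a bar (cut at 0 for Ngfr). The groups overlapped in every panel. Control RE mice had the lowest mean CPM in all 6, from 127 CPM against 167 CPM in NP mice for Ntf3 in CA2 neurons to 1352 against 1387 CPM for Ntrk3 in granule neurons. For Ngfr this rests on stress RE mouse 75, at 21.7 CPM from 5 UMIs, with the other stress RE mice at 0 to 2.36 CPM. How often this order of means occurs over all genes was not computed, so nothing is read from it. The panels share these mice, and in the edgeR fit the Ntrk3 change had the other sign (log2 fold change 0.01). For control RE minus NP, the tests of the 6 genes were 38 higher and 47 lower over the classes, and 4 higher and 2 lower in the whole punch.

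No change of any of the 6 genes between groups passed the test in any class. Counts summed per mouse and class were tested with edgeR's quasi-likelihood test in 1 fit of the 3 groups, with p-values adjusted over all genes tested in the class, and only classes with at least 3 mice per group were tested. Over the classes, 0 of 85 tests of the 6 genes passed an adjusted p of 0.05 for control RE against NP, 0 of 88 for stress RE against control RE and 0 of 88 for stress RE against NP, where 0% of the tests over all genes passed in each of the 3 comparisons. At an unadjusted p under 0.05 the members' counts were 1, 3 and 2, or 1.18%, 3.41% and 2.27%, against 3.12%, 2.88% and 3.71% of all tests. The median log2 fold changes of the members were -0.03, -0.03 and -0.06, against -0.0043, -0.0022 and -0.0026 over all tests. The mice of the compared groups overlapped in every test of the members. The share of tests with such overlap was not computed over all genes, so nothing is read from it. DESeq2 called none of the members either, and over classes and whole punch together its unadjusted p was under 0.05 in 1 of 91, 3 of 94 and 1 of 94 tests of the members, against 2.5%, 2.0% and 3.1% of all its tests. Ngfr could be tested in 1 class, Ntf3 in 9, Bdnf in 14, Sorcs2 in 17 or 18, and Ntrk2 and Ntrk3 in 22 or 23, depending on the comparison. The 2 comparisons with control RE share its 4 mice and those with NP its 6 mice, and batch 1 held no control RE mouse by the labels, which were followed. The study's methods place all groups in every batch, so the batch labels differ from them, and the within-batch values below rest on the labels.

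In the whole punch, the sum over all nuclei of a mouse, fewer cells of a type and less RNA per cell cannot be told apart. There 0 of 6 members passed in each comparison, at an adjusted or an unadjusted p, against 0.00473% (1 gene of 21159, Zic5, named after its value was seen; 0 genes without control RE mouse 66, 72 or 87), 0% and 0% of all genes at the adjusted threshold and 3.98%, 0.86% and 3.94% at the unadjusted one, in the order given above. Bdnf had 45.0 ± 5.66 CPM over all mice, Ntf3 28.7 ± 5.20, Ntrk2 492.6 ± 45.8, Ntrk3 851 ± 97.2, Ngfr 0.265 ± 0.135 and Sorcs2 149.7 ± 30.02 CPM. Bdnf ran from 36.9 to 54.8 CPM in NP mice (median 41.7), against 50.3, 44.1, 42.9 and 45.1 CPM in control RE mice and 50.3, 43.9, 40.5, 43.8 and 48.3 CPM in stress RE mice. Ntf3 ran from 19.9 to 34.2 CPM in NP mice (median 29.0), against 27.4, 26.8, 33.9 and 36.3 CPM in control RE mice and 30.3, 31.3, 23.9, 21.4 and 33.9 CPM in stress RE mice.

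The receptors in the whole punch overlapped in the same way. Ntrk2 ran from 406 to 542 CPM in NP mice (median 485), with 477, 481, 507 and 482 CPM in control RE mice and 485, 603, 449.5, 524 and 464 CPM in stress RE mice. Ntrk3 ran from 697 to 915 CPM in NP mice (median 814), with 814, 808, 892 and 971 CPM in control RE mice and 846, 989, 686, 837 and 1015 CPM in stress RE mice. Ngfr ran from 0.153 to 0.574 CPM in NP mice (median 0.269), with 0.194, 0.272, 0.246 and 0.140 CPM in control RE mice and 0.104, 0.302, 0.381, 0.266 and 0.0948 CPM in stress RE mice. Sorcs2 ran from 135 to 208 CPM in NP mice (median 155), with 116, 125, 157.5 and 132 CPM in control RE mice and 147, 213, 131, 116 and 135 CPM in stress RE mice. The punches also differed in make-up: granule neurons were 20.2% to 33.6% of the nuclei of NP mice, 27.6% to 39.1% of control RE mice and 16.4% to 38.3% of stress RE mice. CA1 neurons were 1.40% to 4.65% (mean 3.29%), 1.87% to 8.45% (mean 5.95%) and 0.935% to 8.49% (mean 5.31%), and habenular neurons 0.166% to 4.81% (mean 2.33%), 0.0103% to 0.332% (mean 0.165%) and 0% to 1.117% (mean 0.513%) in the same order. Striatal-type projection neurons were 0% to 5.33% (mean 1.14%), 0% to 0.904% (mean 0.391%) and 0% to 7.44% (mean 2.35%). They held up to 24.5% of the Sorcs2 UMIs of a mouse and up to 15.9% of its Ntrk3 UMIs. The part of these classes in the whole-punch values was not tested.

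**Figure D3:**
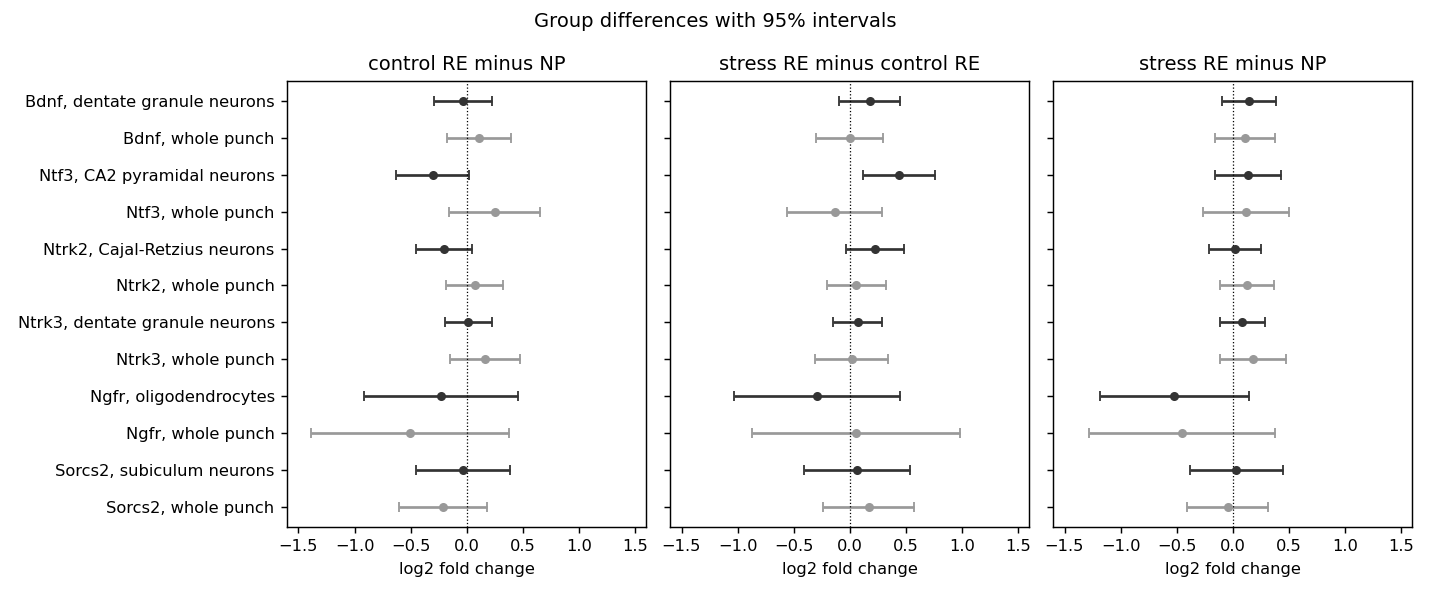
Log2 fold change (horizontal axis) with its 95% interval for each gene in the highest class that could be tested (dark) and in the whole punch (grey), for the 3 comparisons of groups. All intervals cross 0 other than that of Ntf3 in CA2 neurons for stress RE minus control RE (0.44, interval 0.12 to 0.76), whose adjusted p was 1.00.

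For Bdnf in granule neurons, the log2 fold change was -0.03 (SE 0.12, 95% interval -0.29 to 0.22, edgeR adjusted p = 0.964) for control RE minus NP, 0.18 (SE 0.13, -0.09 to 0.44, adjusted p = 1.00) for stress RE minus control RE and 0.14 (SE 0.11, -0.10 to 0.38, adjusted p = 1.00) for stress RE minus NP. Within batches 2 and 3, the stress RE minus control RE difference of mean log2 levels was 0.30 and 0.08, with 2 mice a group, and the control RE minus NP difference -0.12 and -0.14, while stress RE minus NP was 0.18 and -0.05. For Ntrk3 in granule neurons the 3 changes were 0.01 (interval -0.20 to 0.22), 0.07 (-0.15 to 0.29) and 0.09 (-0.11 to 0.28). In the whole punch the intervals of Bdnf were -0.18 to 0.40, -0.30 to 0.30 and -0.16 to 0.38 on the log2 scale. Its within-batch differences there had opposite signs in batches 2 and 3, at 0.13 and -0.23 for control RE minus NP, 0.04 and -0.04 for stress RE minus control RE and 0.17 and -0.27 for stress RE minus NP.

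The member with the smallest unadjusted p was Ntf3 in CA2 neurons. Its level was 127 ± 19.0 CPM in control RE, 171 ± 32.04 CPM in stress RE and 167 ± 21.98 CPM in the NP group. Stress RE minus control RE was 0.44 on the log2 scale (SE 0.15, interval 0.12 to 0.76), with an unadjusted p of 0.0101 and an edgeR adjusted p of 1.00. The difference was 0.35 in batch 2 and 0.30 in batch 3. For control RE minus NP the log2 fold change was -0.30 (interval -0.63 to 0.02, unadjusted p = 0.0644 in edgeR), with -0.15 and -0.65 in the batches, and for stress RE minus NP 0.13 (interval -0.16 to 0.43), with 0.20 in batch 2 and -0.36 in batch 3. The summed level of the 7 CA2 markers ran from 454 to 658 CPM in NP, 473 to 558 CPM in control RE and 446 to 613 CPM in stress RE mice, and that of the 7 granule markers from 319 to 651, 340 to 629 and 438 to 603 CPM. The 7 CA3 markers summed to 2154 to 3548 CPM in NP (mean 2984), 2558 to 4058 CPM in control RE (mean 3098) and 2173 to 3070 CPM in stress RE mice (mean 2675), in the reverse order of Ntf3 between control RE and stress RE. No marker of these lists was at 0, each list overlapped between groups, and their part in the Ntf3 values was not tested.

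Ntrk2 in pericytes and smooth muscle, the contractile cells of vessel walls, had the next smallest p. NP mice ran from 183 to 301 CPM (median 229), control RE mice had 293, 65.4, 307 and 229.5 CPM, and stress RE mice 71.7, 112, 99.8, 245 and 65.2 CPM, each from 3 to 44 UMIs. Stress RE mice were lower than most others, apart from 1 stress RE mouse among the NP values and 1 control RE mouse among the stress values. The other 4 stress RE values lay near the mean levels of Ntrk2 in microglia and oligodendrocytes, which serve only as a rough guide to background, since free RNA was not estimated. In those classes stress RE minus NP was -0.23 in microglia (interval -0.77 to 0.31) and -0.42 in oligodendrocytes (interval -0.87 to 0.02), and it was 0.20 in endothelial cells (interval -0.53 to 0.94). The shares of nuclei with a Ntrk2 UMI after thinning were 11.4% in NP and 6.21% in stress RE mice for pericytes and smooth muscle, 9.38% and 7.30% for microglia, 8.01% and 5.39% for oligodendrocytes and 10.9% and 8.68% for endothelial cells. The log2 fold change was -0.87 (SE 0.34, interval -1.58 to -0.17, unadjusted p = 0.0178, edgeR adjusted p = 0.806) for stress RE minus NP and -0.94 (SE 0.37, interval -1.71 to -0.18, unadjusted p = 0.0182, edgeR adjusted p = 0.803) for stress RE minus control RE. The stress RE minus NP difference was -1.03 in batch 2 and -1.30 in batch 3, and the stress RE minus control RE difference 0.04 in batch 2 and -1.83 in batch 3, so the latter did not hold within both. With doublets kept in the sums stress RE minus NP was -0.46, and without the stress RE mouse at 245 CPM it was -1.40; for stress RE minus control RE these values were -0.58 and -1.47. The summed level of the 7 astrocyte markers in these nuclei ran from 153 to 355 CPM in NP, 153 to 777 CPM in control RE and 192 to 848 CPM in stress RE mice, with 1 marker at 0 in NP mice and none in the others, and that of the 8 markers of the class itself from 3982 to 5374, 3512 to 6239 and 4648 to 6101 CPM. Their part in the result was not tested.

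The other unadjusted p-values under 0.05 were for Ntf3 in progenitors and neuroblasts and for Bdnf in subiculum neurons and interneurons. For Ntf3, control RE minus NP was 0.93 (SE 0.40, unadjusted p = 0.0314, edgeR adjusted p = 1.00), and leaving out the control RE mouse with 111 CPM gave 0.39. The difference was 1.61 in batch 2 and 0.54 in batch 3. Granule markers in this class summed to 1691 to 2739 CPM in NP and 1875 to 2294 CPM in control RE mice, and their part was not tested. For Bdnf in subiculum neurons, stress RE minus control RE was -1.09 (SE 0.47, unadjusted p = 0.0326, edgeR adjusted p = 1.00) with 3 mice a group: 24.6, 14.9 and 7.94 CPM in control RE and 10.8, 5.41 and 5.26 CPM in stress RE mice, from 3 to 26 UMIs each. Other than the 24.6 CPM of 1 control RE mouse, these values lie below the mean of microglia (22.1 CPM), as do the interneuron values below other than 23.6 CPM. Microglia were shallower, at a median of 2056.5 UMIs against 18409 in subiculum neurons and 12580.5 in interneurons. A Bdnf UMI was found in 4.31% of microglia, 16.1% of subiculum neurons and 6.16% of interneurons. The microglial CPM is therefore no floor for these neurons, and the part of free RNA in their values was not tested. The 7 granule markers in subiculum nuclei summed to 153 to 287 CPM in control RE (mean 208) and 141 to 196 CPM in stress RE mice (mean 168). The 5 subiculum markers summed to 375 to 672 CPM (mean 516) and 491 to 672 CPM (mean 589), with none of either list at 0, and their part was not tested. With doublets kept the Bdnf change in subiculum neurons was -0.54, and batch 2 gave -0.57 from 2 stress RE mice and 1 control RE mouse. For Bdnf in interneurons, stress RE minus NP was -0.94 (SE 0.45, unadjusted p = 0.0487, edgeR adjusted p = 0.966). NP mice ran from 3.99 to 23.6 CPM with a median of 5.83, and stress RE mice had 3.96, 3.34, 6.87, 4.09 and 4.59 CPM. Without the NP mouse at 23.6 CPM the log2 fold change was -0.23, and the batches gave -0.30 and -0.99. The 7 granule markers in interneurons summed to 347 to 413 CPM in NP and 372 to 456 CPM in stress RE mice, with none at 0, and their part was not tested.

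For the remaining members the class with the smallest p was border-associated macrophages for Ntrk3, mossy cells for Sorcs2 and oligodendrocytes for Ngfr. Ntrk3 in these macrophages, the immune cells of the meninges and perivascular space, ran from 150.2 to 641 CPM in NP mice (median 285), with 226, 564, 373 and 748 CPM in control RE mice and 524, 407, 531, 935 and 392 CPM in stress RE mice. These values rest on 13 to 49 nuclei per mouse, 421 in all, at a median depth of 2435 UMIs. At the finer clustering the class held 660 nuclei, with Inpp5d and Ikzf1, also leading genes of microglia, among its leading genes. The log2 fold change of stress RE minus NP was 0.82 (SE 0.41, interval -0.04 to 1.69, edgeR adjusted p = 0.459), with 1.10 in batch 2 and 1.17 in batch 3, 0.43 at the finer clustering and 0.52 without stress RE mouse 77. The 7 granule markers in the macrophage nuclei of the main clustering summed to 348 to 1053 CPM in NP, 199.985 to 1751 CPM in control RE and 288 to 559 CPM in stress RE mice. The 6 markers of the class itself summed to 2045 to 5918 CPM in NP (mean 3758), 1645 to 5567 CPM in control RE (mean 3176) and 730.4 to 5276 CPM in stress RE mice (mean 2280), with none of either list at 0, and their part in the result was not tested. Sorcs2 in mossy cells was -0.38 (SE 0.19, interval -0.78 to 0.02, edgeR adjusted p = 1.00) for stress RE minus control RE, with -0.07 in batch 2 and -0.98 in batch 3, and -0.17 without the control RE mouse at 789 CPM. The 8 mossy markers summed to 665 to 928 CPM in control RE mice, with 1 at 0, and 594 to 945 CPM in stress RE mice, the 7 CA3 markers to 1869 to 2283 and 1685 to 2298 CPM and the 7 thalamic markers to 99.9 to 200.1 and 140.03 to 172 CPM, and their part was not tested. Ngfr in oligodendrocytes was -0.52 (SE 0.31, interval -1.19 to 0.14, edgeR adjusted p = 0.995) for stress RE minus NP, with -0.54 and -0.32 in the batches, and -0.32 without NP mouse 27, and a 2-fold fall lies inside its interval.

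The 50 other genes of the pathway, in 5 lists, were described in the same way, and 0 of those that could be tested passed an adjusted p of 0.05 in either direction in any class or in the whole punch, by edgeR or by DESeq2. In DESeq2, over classes and whole punch together, the unadjusted counts for control RE minus NP, stress RE minus control RE and stress RE minus NP were 4 of 95, 2 of 99 and 8 of 99 tests for the other neurotrophins and receptors and 3 of 148, 3 of 156 and 10 of 155 for processing and release. They were 13 of 310, 7 of 325 and 8 of 324 for Trk adaptors, 13 of 131, 2 of 138 and 4 of 139 for p75 partners and 4 of 67, 2 of 74 and 3 of 69 for activity-dependent genes, to be read against the DESeq2 shares of all tests above. Of the other neurotrophins and receptors, the sortilin family was spread: Sorcs1 was highest in oligodendrocytes (999 ± 71.6 CPM), Sorcs3 in CA1 neurons (878 ± 93.9 CPM) and Sort1, sortilin, in subiculum neurons (363 ± 41.0 CPM). Ntf5 was near the limit of detection, with a whole-punch mean of 0.142 CPM. At an unadjusted p under 0.05 this list had 0 tests higher and 4 lower of 89 for control RE minus NP over the classes, 2 and 0 of 93 for stress RE minus control RE and 3 and 5 of 93 for stress RE minus NP, or 4.49%, 2.15% and 8.60% against 3.12%, 2.88% and 3.71% of all tests, with medians of -0.06, 0.04 and -0.01 on the log2 scale. Its smallest p was that of Sorcs3 in border-associated macrophages for stress RE minus NP, with a log2 fold change of 1.65 (SE 0.40, edgeR adjusted p = 0.243). That class held 13 to 49 nuclei per mouse.

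Among the genes that cleave and release proneurotrophins, the convertase Pcsk2 was highest in CA3 neurons (1439.7 ± 188 CPM), Pcsk1 in habenular neurons (92.0 ± 17.8 CPM), carboxypeptidase E (Cpe), a sorting factor of secretory granules, in astrocytes (2029 ± 135 CPM) and Cadps2, a factor of dense-core vesicle release, in subiculum neurons (1338 ± 209 CPM). Unadjusted counts for this list were 3 higher and 2 lower of 138, 2 and 1 of 146, and 4 and 11 of 145 tests, or 3.62%, 2.05% and 10.3% against 3.12%, 2.88% and 3.71% of all tests, with medians of -0.01, -0.03 and -0.05. Its smallest p was that of Pcsk5 in border-associated macrophages for control RE minus NP (2.04, SE 0.64, edgeR adjusted p = 0.598), again from 13 to 49 nuclei per mouse. Trk adaptors and signalling genes had 3 higher and 8 lower of 293, 4 and 6 of 308, and 2 and 6 of 307 tests, or 3.75%, 3.25% and 2.61% against the same shares of all tests, with medians of -0.03, -0.01 and -0.03, and with Rapgef1 in striatal-type projection neurons for stress RE minus control RE the smallest (-0.70, SE 0.18, edgeR adjusted p = 0.227, 3 mice a group). The adaptor Shc3 was highest in thalamic neurons (522 ± 28.6 CPM) and Gab1 in oligodendrocytes (761 ± 97.0 CPM).

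The partners of the p75 receptor had 3 higher and 12 lower of 123 tests for control RE minus NP, then 3 and 1 of 130 and 1 and 5 of 131, or 12.2%, 3.08% and 4.58% against 3.12%, 2.88% and 3.71% of all tests. Their median log2 fold changes in these comparisons were -0.11, 0.08 and -0.04. The smallest p was that of Arhgdia in interneurons for control RE minus NP (-0.95, SE 0.28, edgeR adjusted p = 0.938). Lingo1, a co-receptor of the p75 and Nogo receptor complex, was highest in CA3 neurons (281 ± 51.2 CPM). Genes of 1 list tested in many classes share mice, so these shares are a description and nothing is read from them about the list.

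Neuronal activity is the best-known regulator of Bdnf, so its level was set against the summed level of 8 activity-dependent genes (Fos, Fosb, Junb, Egr1, Arc, Npas4, Nr4a1 and Nptx2) over the 15 mice in 3 neuron classes. The summed level ran from 19.0 to 63.3 CPM in granule neurons, 49.3 to 133 CPM in CA3 neurons and 124 to 340 CPM in CA1 neurons. In granule neurons Pearson's r of the log2 levels was -0.01 (two-sided permutation p = 0.973, 0.973 after Benjamini-Hochberg adjustment over the 3 classes) and Spearman's rho 0.17 (permutation p = 0.552, adjusted 0.552). In CA1 neurons r was 0.37 (permutation p = 0.163, adjusted 0.490) and rho 0.39 (permutation p = 0.155, adjusted 0.465). In CA3 neurons r was 0.21 (permutation p = 0.454, adjusted 0.680) and rho 0.28 (permutation p = 0.319, adjusted 0.479). No relation over all mice passed the test, and the permutations took no account of batch. In granule neurons the mice of batch 1 had summed levels of 41.8, 63.3 and 43.3 CPM, against 19.0 to 36.3 CPM in all other mice. The part of batch in r was not tested.

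The batches did not give the same value. In the 6 mice of batch 2, r was 0.18 in granule neurons (exact permutation p = 0.797), 0.82 in CA1 neurons (exact permutation p = 0.0333) and 0.83 in CA3 neurons (exact permutation p = 0.0139). In the 6 mice of batch 3 it was 0.42 (exact permutation p = 0.439), -0.13 (exact permutation p = 0.908) and 0.22 (exact permutation p = 0.686). After adjustment over the 6 within-batch tests the smallest of these exact permutation p-values were 0.0833 and 0.10, in CA3 and CA1 neurons of batch 2. Batch 1 held 3 mice and gives no value, and the difference between batches was not tested. Without the 2 mice farthest from the median of the summed level, r was 0.25 in granule neurons, 0.28 in CA1 neurons and -0.22 in CA3 neurons, with permutation p-values of 0.411, 0.352 and 0.469. The activity-dependent genes themselves had unadjusted counts of 0 higher and 3 lower of 59 tests for control RE minus NP, 1 and 0 of 66 for stress RE minus control RE and 0 and 2 of 61 for stress RE minus NP, or 5.08%, 1.52% and 3.28% against 3.12%, 2.88% and 3.71% of all tests, with medians of -0.14, -0.02 and -0.30, and the smallest p was that of Arc in subiculum neurons for stress RE minus NP (-1.35, SE 0.34, edgeR adjusted p = 1.00, 3 against 6 mice).

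**Figure D4:**
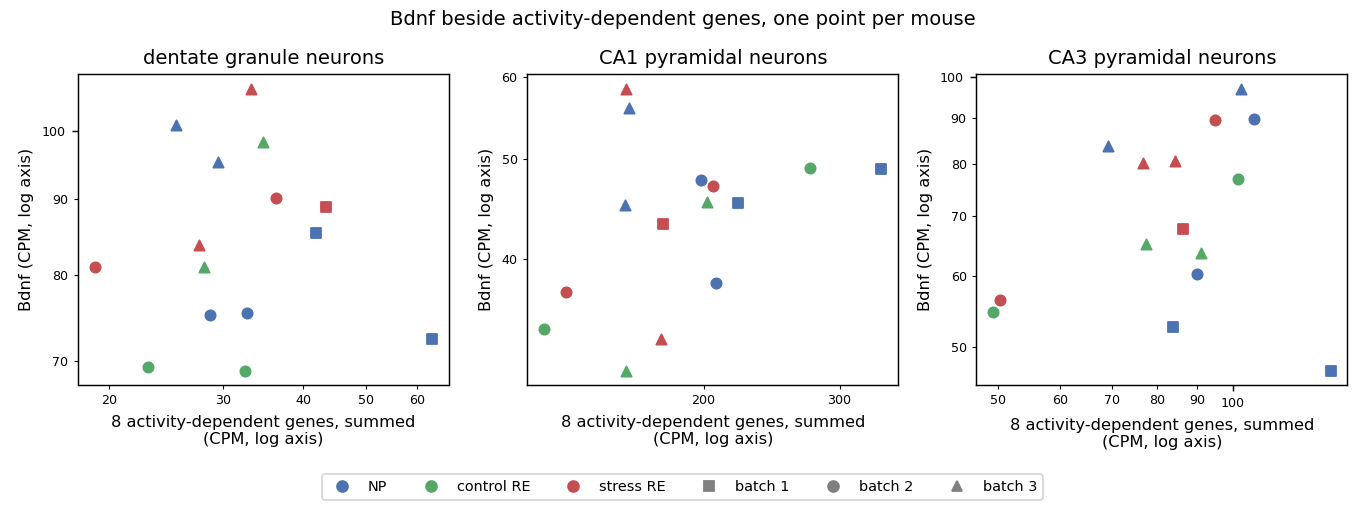
Bdnf level against the summed level of 8 activity-dependent genes (both CPM on log axes) in dentate granule, CA1 and CA3 pyramidal neurons, 1 point per mouse, coloured by group and shaped by batch. Pearson's r over the 15 mice was -0.01, 0.37 and 0.21 in the 3 panels, and the batch 2 mice alone gave 0.82 and 0.83 in the CA1 and CA3 panels, where the batch 3 mice gave -0.13 and 0.22.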

How the data were processed

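Nuclei of 15 mice were profiled with 10x 3' v3.1 chemistry, 1 library per mouse. Per the labels and the file headers, the authors deposited raw UMI counts from Cell Ranger (7.1.0 in the processing notes, 7.0.0 in the file headers) for mm10-based annotation; their later correction for ambient RNA and doublets and their cell labels are not in these values. The members and gene lists were chosen with earlier results of these data known.

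Barcodes with at least 200 genes and at most 5% mitochondrial counts were kept, and those with the highest Scrublet scores were removed per library as doublets (0.8% per 1000 barcodes; scanpy 1.11.5). Nuclei were clustered by Leiden (resolution 1; 2000 variable genes without the listed genes, 30 components, 15 neighbours), and clusters were named when at least 3 markers of a class were detected. The thresholds for names, 2 names that were dropped and 2 clusters that were split by the finer clustering were chosen with the clusters in view; 5842 nuclei stayed unnamed. Names rest on markers and were not taken from the study.

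Counts were summed per mouse and class (at least 10 nuclei) and tested with edgeR 4.0.16 (quasi-likelihood, filterByExpr, TMM), Benjamini-Hochberg adjusted over the genes of a class, after the scripts had been tested on simulated data. Intervals are 95%. Correlations over mice used 100000 permutations. Library depth was 40602582 to 96211264 UMIs. Intervals and floors cover counting error or the spread between mice only. Alternatives were DESeq2 1.42.0, batch as a term, no filter on low counts, RLE scaling, doublets kept, Leiden resolution 2 and leaving out each mouse. All 6 members were named, with their 3 highest classes, the whole punch and the comparison with the smallest p; the remaining comparisons with an unadjusted p under 0.05 were chosen after their values were seen. Values of some listed genes are not reported here.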

Additional observations from a re-analysis of the deposited data

Results flagged for a closer look

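Of 68 groups of mice checked, 6 held a mouse far from the others of its group by Dixon's criterion at the 95% level, where chance gives about 1 in 20. Ntf3 in progenitors and neuroblasts was at 111 CPM in control RE mouse 88 (30 UMIs in 66 nuclei), against 34.7 to 40.2 CPM in the other control RE mice. Ntrk2 in the whole punch was at 507 CPM in control RE mouse 87, against 477 to 482 CPM. Ngfr in oligodendrocytes was at 2.18 CPM in control RE mouse 72 (10 UMIs), against 1.48 to 1.55 CPM. Ngfr in vascular leptomeningeal cells was at 21.7 CPM in stress RE mouse 75 (5 UMIs in 96 nuclei), against 0 to 2.36 CPM. In choroid plexus epithelium Ngfr was at 3.51 CPM in NP mouse 31 (44 nuclei) and at 4.92 CPM in control RE mouse 72 (40 nuclei), each from 1 UMI, with the other mice of both groups at 0; with 1 value above 0 the criterion is met by construction, so the chance rate does not apply to these 2.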

How the results depend on the processing

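None of the 6 genes passed the adjusted threshold in any class or in the whole punch under any of 21 alternatives, of which 15 left out 1 mouse each; the smallest adjusted p was 0.212. Of 863 alternative values of 43 log2 fold changes, 46 had the other sign, spread over 12 of the changes, and 9 moved by 1 SE or more. Of 54 alternative levels 53 stayed within 1 SD, the exception being Ntrk2 in astrocytes with doublets kept (952 CPM). Over all genes, edgeR called 0 class tests for control RE minus NP, stress RE minus control RE and stress RE minus NP, against 3, 47 and 1 in DESeq2 and 233, 507 and 323 without the filter on low counts, none of them a member; with batch as a term they were 0, 1 and 1, and without 1 mouse at most 18. In the whole punch they were 1, 0 and 0, against 21, 0 and 1 in DESeq2, and the 1 call was lost without control RE mouse 66, 72 or 87; without NP mouse 35 there were 3. For Bdnf against the activity-dependent genes, r turned from -0.01 to 0.249 in granule neurons without the 2 mice farthest from the median and to 0.011 with doublets kept, and from 0.21 to -0.22 in CA3 neurons without such mice; the cause was not tested. Leaving out a subiculum mouse of control RE or stress RE left under 3 mice in that group, so those fits gave no value for the Bdnf change there. No paired analysis was possible because the labels give the mice of the 3 groups no shared numbers. Ngfr, with 236 UMIs in all, rests on few counts in every class.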
